A study of Homo sapiens with 8 samples.

Results

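The genes described here were the collagen genes, taken by symbol as COL, a type number, A and a chain number. The rule gave 44 of the 27945 genes counted. No antisense gene of a collagen, collagen-modifying enzyme or gene that only carries a collagen-like domain was a member. Their nascent transcription was followed by fastGRO-seq, in which nuclei are isolated, engaged polymerases run on with a labeled nucleotide, and the labeled RNA is captured and sequenced, so that reads report ongoing synthesis and not stored mRNA. All libraries came from IMR90 ER:RAS cells, human diploid embryonic lung fibroblasts with a construct that fuses the estrogen receptor to oncogenic H-RAS and is switched on by 4-hydroxytamoxifen (4-OHT). There were 4 groups of 2 libraries. Control cells were labeled WT and had no named shRNA, while the senescent groups carried shControl, shMETTL3 or shMETTL14. The study's methods give 100 nM 4-OHT for inducing senescence and day 6 for checking RAS and senescence markers, and neither is stated for these libraries themselves. Each knockdown rested on a single shRNA delivered by lentivirus. Senescence and shRNA infection therefore cannot be told apart in the comparison of senescent shControl cells with control cells, and the comparisons of shMETTL3 and shMETTL14 with shControl share the same 2 shControl libraries.

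Collagens are secreted proteins in which 3 chains wind into a triple helix. Fibrillar types such as I, III and V build the fibrils of connective tissue, type IV forms the network of basement membranes, type VI forms beaded filaments around cells, and the fibril-associated types decorate the surface of fibrils. Fibroblasts are the main source of most of these chains, and senescent fibroblasts are known for a changed matrix and for secreting enzymes that cleave it. METTL3 and METTL14 are the core subunits of the complex that writes N6-methyladenosine on RNA.

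The total count per library ran from 14897360 to 20306299, of which 86.2% to 92.5% lay on 21 ribosomal RNA rows, which left 1513930 to 2048475 counts on other genes. The identity of the cells was checked with marker genes. Of 12 fibroblast markers, 11 had a mean of at least 10 raw counts, against 2 of 7 epithelial, 1 of 6 endothelial, 1 of 6 leukocyte, 1 of 4 cartilage and 3 of 4 smooth muscle markers, and KRT5 and CD3E were at 0 in every library. EPCAM, CDH1, PECAM1, CDH5 and ACAN never exceeded 2 raw counts and PTPRC never exceeded 4. METTL3 had 77 and 47 raw counts with shControl against 16 and 19 with shMETTL3, so that the labeled target fell by 2.04 (SE 0.31) on the log2 scale (edgeR adjusted p = 1.8e-05). METTL14 had 24 and 28 raw counts with shControl against 18 and 14 with shMETTL14, a difference of −0.86 (SE 0.34) that did not pass the threshold (edgeR adjusted p = 0.076). Between shControl and control cells METTL14 already differed by −0.76 (SE 0.28, edgeR adjusted p = 0.0472). Reads of this kind report ongoing synthesis, so they do not measure the mRNA or protein left after a knockdown. For both knockdowns the paper refers to a Western blot, which was not examined here.

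Several collagen genes lie head to head, and these short intervals are shown because the chains on either side are partners whose values are compared below. In hg19 COL4A1 (chr13:110801305-110959504, minus strand) and COL4A2 (chr13:110959614-111165556, plus strand) are separated by 109 bases, COL4A6 and COL4A5 on chromosome X by 346 bases, and COL4A4 and COL4A3 on chromosome 2 by 5 bases. The COL4A1 to COL4A2 interval, chr13:110959505-110959613, is written below on the plus strand with 250 bases of RefSeq sequence (GRCh38.p14) before the start of COL4A5 (chrX:108439588-108439837, plus strand), COL5A1 (chr9:134641553-134641802, plus strand) and COL11A1 (chr1:103108523-103108772, minus strand). COL5A1 and COL11A1 were chosen after their values were seen, as fibrillar genes that fell in senescence and rose with shMETTL3. Capitals mark CCAAT, a box bound by NF-Y, and GGGCGG, a box bound by Sp1, on either strand. The letters TATAAA, core of the TATA box, were searched too and are in none of the 4.
COL4A1 to COL4A2: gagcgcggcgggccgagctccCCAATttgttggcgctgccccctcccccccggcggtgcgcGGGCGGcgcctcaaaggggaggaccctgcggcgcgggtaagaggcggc
COL4A5: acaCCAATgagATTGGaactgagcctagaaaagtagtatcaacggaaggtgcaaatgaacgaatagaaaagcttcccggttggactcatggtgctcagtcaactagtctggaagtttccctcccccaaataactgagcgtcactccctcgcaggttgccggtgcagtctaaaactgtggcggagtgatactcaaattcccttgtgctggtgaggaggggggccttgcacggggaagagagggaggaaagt
COL5A1: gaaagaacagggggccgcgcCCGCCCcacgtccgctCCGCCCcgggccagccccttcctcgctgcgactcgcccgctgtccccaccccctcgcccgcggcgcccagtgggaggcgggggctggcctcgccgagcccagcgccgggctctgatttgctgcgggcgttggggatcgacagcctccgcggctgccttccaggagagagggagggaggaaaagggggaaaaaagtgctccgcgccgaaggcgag
COL11A1: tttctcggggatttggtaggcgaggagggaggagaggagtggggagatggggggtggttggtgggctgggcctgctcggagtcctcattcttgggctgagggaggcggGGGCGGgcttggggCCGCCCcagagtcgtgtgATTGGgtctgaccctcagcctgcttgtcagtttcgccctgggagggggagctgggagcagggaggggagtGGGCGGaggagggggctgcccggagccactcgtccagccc
In the RefSeq promoter set used, 32 of the collagen genes had a window. COL1A1, COL1A2, COL3A1, COL5A2 and COL6A1 were among those with no window. Of the 32 windows of 250 bases, 18 (56.2%) held GGGCGG, against 42.6% of all 35116 windows of the same length. CCAAT was in 9 of the 32 (28.1% against 32%) and TATAAA in 5 (15.6% against 10.7%). A single window was kept per collagen gene, while the 35116 windows were not reduced in this way. These letters are a description of the windows, and none of the 3 searches was tested against the changes below.

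Of the 44 collagen genes, 27 passed the filter on low counts, among 12844 genes tested, and 19 of them had a mean of at least 100 raw counts. Genes are compared below with normalized counts, the raw count divided by the library's effective size (TMM, relative to the mean library), and with edgeR log2 fold changes. A gene was called higher or lower when its p-value, adjusted by Benjamini-Hochberg over all genes tested, was below 0.05. The tested collagen genes were more deeply counted than most, with a median of 269.5 raw counts per library against 48.3 for all genes tested, and longer, with a median of 147964 against 33257 bases. The other 17, COL2A1, COL4A3, COL4A4, COL6A5, COL6A6, COL8A2, COL9A1, COL9A2, COL9A3, COL11A2, COL17A1, COL20A1, COL22A1, COL23A1, COL25A1, COL26A1 and COL28A1, were not tested. No library had more than 11 counts on any of them, 7 had at most 3 in every library, and COL9A1 had none. They include the cartilage fibril chain COL2A1 and the epidermal transmembrane chain COL17A1. With no filter on low counts, 2 of the 17 were called higher in senescence, COL22A1 from 0 and 1 to 10 and 10 raw counts and COL28A1 from 0 and 0 to 4 and 5, and COL22A1 was called lower with shMETTL3, at 4 and 0. These calls rest on few counts, and the share of all genes called without the filter was not counted.

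Collagen genes took a smaller part of the nascent RNA in senescent cells and the smallest with shMETTL14. They held 2.98% and 2.77% of the counts outside ribosomal RNA in control cells, 1.79% and 1.92% in shControl cells, 1.65% and 1.35% after shMETTL3 and 0.826% and 1.02% after shMETTL14. Each senescent library lay below both control libraries, and both shMETTL14 libraries lay below all the others. In bulk libraries of this kind, fewer cells that transcribe a gene and less transcription per cell cannot be told apart. The composition differed as well. Type I chains made up 31.1% and 30.6% of collagen counts in control cells, 13.8% and 17.4% in shControl cells, 22.2% and 20.6% after shMETTL3 and 18.1% and 19.6% after shMETTL14. Type VI chains made up 36.7% and 36.1% in control cells, 57.0% and 52.8% in shControl cells, 35.6% and 33.5% after shMETTL3 and 51.2% and 46.5% after shMETTL14. Type IV chains stood at 7.91% and 7.79%, at 12.7% and 12.3%, at 20.3% and 23.2%, and at 11.4% and 14.1% in the same order of groups. The type VI share was thus highest with shControl and shMETTL14, and the type IV share was highest with shMETTL3. With 2 libraries against 2, an exact permutation test of a single value cannot go below p = 0.333333, so these shares were not tested.

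**Figure D1:**
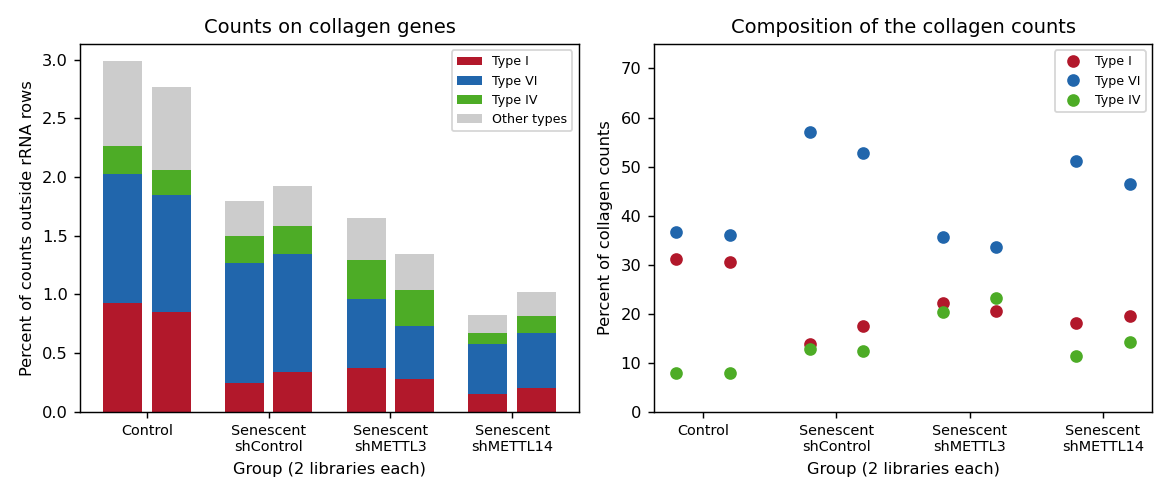
Left, percent of the counts outside ribosomal RNA rows that lay on collagen genes, stacked by type, with 1 bar per library. Right, percent of all collagen counts on type I, type VI and type IV genes, with 1 point per library in 4 groups of 2. The bars fall from 2.98% and 2.77% in control cells to 0.826% and 1.02% with shMETTL14.

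Per kilobase of gene, COL1A1 stood first in control cells with 492 and 433 normalized counts, followed by COL1A2 with 182 and 175 and COL6A1 with 161 and 145. COL6A3 (122 and 113), COL6A2 (95.4 and 86.8) and COL3A1 (70.9 and 70.1) came next, and none of these neighbors overlapped. With shControl COL6A1 (173 and 166 per kilobase) and COL1A1 (141 and 188) overlapped at the top, and COL1A2 had dropped to 52.8 and 69.9. With shMETTL3 COL1A1 (222 and 161) stood above COL6A1 (104 and 75.6). With shMETTL14 COL1A1 (100 and 123) again stood above COL6A1 (92.8 and 94.6), whereas COL3A1 lay at 4.64 and 8.23.

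**Figure D2:**
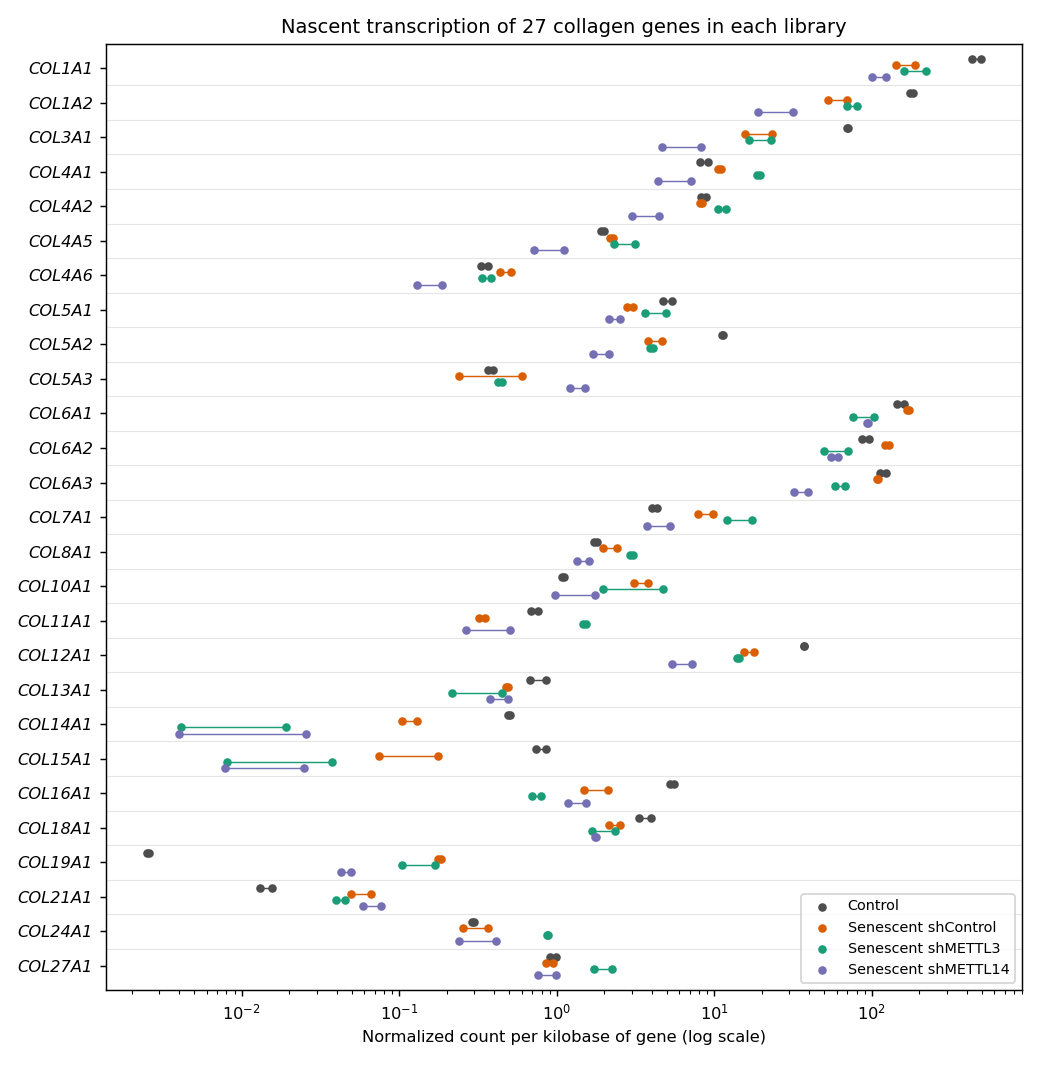
Normalized count per kilobase of gene, on a log axis, for the 27 collagen genes tested, with 1 point per library and a line joining the 2 libraries of a group. Control, senescent shControl, shMETTL3 and shMETTL14 libraries are set below each other within each gene. COL1A1 is highest in control cells at 492 and 433, COL14A1 and COL15A1 are each lowest in the 4 knockdown libraries, and COL19A1 is lowest in the control libraries.

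Between senescent shControl and control cells, 12 of the 27 tested collagen genes were lower (44.4%, where 13.3% of all genes tested were lower) and 5 were higher (18.5%, where 13.3% of all genes tested were higher). The falls held the interstitial fibril chains COL1A1, COL1A2, COL3A1, COL5A1 and COL5A2, together with COL11A1, COL12A1, COL13A1, COL14A1, COL15A1, COL16A1 and COL18A1. The rises were COL6A2, COL7A1, COL10A1, COL19A1 and COL21A1. The median log2 fold change of the 27 genes was −0.07, against −0.03 over all genes tested, and 10 of the 27 genes were not called. The number of rises changed in some fits with 1 library left out. The filter on low counts was applied anew in each, so collagen genes outside the 27 could enter. In such fits the group of the library left out had 1 library and was assumed to vary like the others.

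After shMETTL3, 8 of the 27 were higher than with shControl (29.6%, where 12.3% of all genes were higher) and 6 were lower (22.2%, where 11.2% of all genes were lower). The rises were COL4A1, COL4A2, COL5A1, COL7A1, COL8A1, COL11A1, COL24A1 and COL27A1, and the falls were COL6A1, COL6A2, COL6A3, COL14A1, COL15A1 and COL16A1. Without shControl replicate 2, 4 rises were called. Scaling by library size alone moved the median log2 fold change of all genes to 0.58 in this comparison and gave 14 higher and 4 lower collagen genes. The share of all genes called under that scaling was not counted, so these numbers say nothing about collagen genes in particular. Under the same scaling the median of all genes was −0.53 in the senescence comparison and 0.35 after shMETTL14. All fold changes given here are relative to the bulk of genes.

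After shMETTL14, 17 of the 27 were lower than with shControl (63.0%, where 12% of all genes were lower) and only COL5A3 was higher (3.70%, where 9.15% of all genes were higher). The median log2 fold change of the tested collagen genes was −0.98 and that of all genes tested was 0.00. The falls covered both type I chains, COL3A1, COL5A2, COL4A1, COL4A2, COL4A5, COL4A6, the 3 tested type VI chains, COL7A1, COL8A1, COL12A1, COL14A1, COL15A1 and COL19A1. Compared directly with shMETTL3, shMETTL14 cells had 18 collagen genes lower (66.7%, where 18.7% of all genes were lower) and 2 higher, COL5A3 and COL16A1 (7.41%, where 16.5% of all genes were higher), with a median log2 difference of −1.07. The number of genes higher changed in some fits with 1 library left out, where collagen genes outside the 27 could enter. Each of the 27 tested genes passed the threshold in at least 1 of the first 3 comparisons, as did 48.2% of all genes tested, and COL6A2, COL7A1, COL14A1 and COL15A1 passed in all 3, as did 4.69% of all genes tested. The collagen genes were more deeply counted than most, and the part of depth in these counts was not tested.

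**Figure D3:**
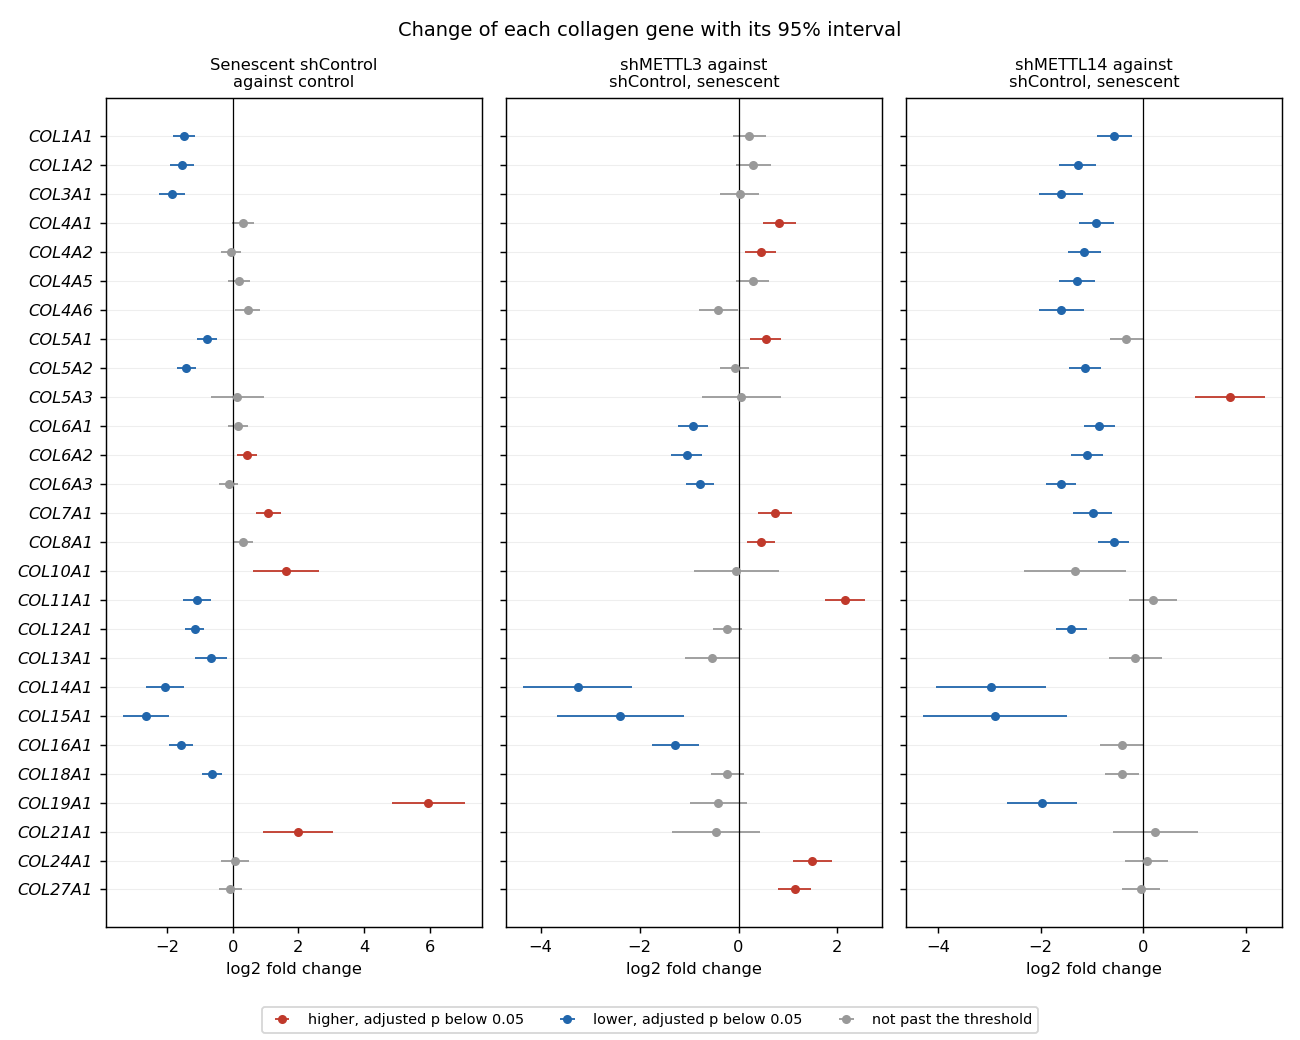
Log2 fold change of the 27 tested collagen genes with its 95% interval, for senescent shControl against control cells, shMETTL3 against shControl and shMETTL14 against shControl. Red and blue points are genes higher and lower at an adjusted p below 0.05, and gray points did not pass. In the right panel 17 points are blue and 1, COL5A3, is red.

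Type I collagen, the main protein of fibrils in connective tissue, is made of COL1A1 (chr17:48261457-48279000, hg19) and COL1A2 (chr7:94023873-94060544) chains. COL1A1 had 8631 and 7604 normalized counts in control cells, 2481 and 3294 in shControl cells, 3897 and 2822 after shMETTL3 and 1762 and 2155 after shMETTL14. The control libraries stood far above the rest, and the shControl and shMETTL3 ranges overlapped. It fell by 1.49 (SE 0.17) on the log2 scale in senescence (edgeR adjusted p = 6.29e-08) and by 0.56 (SE 0.16) with shMETTL14 (edgeR adjusted p = 0.0146), and differed by 0.22 (95% interval −0.12 to 0.55) with shMETTL3. The fall with shMETTL14 did not pass without shControl replicate 2 (−0.35, adjusted p = 0.332), without shMETTL14 replicate 1 (−0.44, adjusted p = 0.125) or with scaling by library size alone (−0.22, adjusted p = 0.22). Between the knockdowns COL1A1 was lower with shMETTL14 by −0.78 (SE 0.16), or −0.51 without shMETTL3 replicate 1.

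COL1A2 followed with 6678 and 6424 normalized counts in control cells, 1935 and 2563 in shControl cells, 2974 and 2570 after shMETTL3 and 700 and 1153 after shMETTL14. Here the shMETTL14 libraries lay below those of every other group. The log2 fold change was −1.54 (SE 0.18) in senescence, 0.30 (95% interval −0.06 to 0.66) with shMETTL3 and −1.28 (SE 0.18) with shMETTL14 (edgeR adjusted p = 5.75e-06). The ratio of COL1A1 to COL1A2 raw counts was 1.29 and 1.18 in control cells, 1.28 and 1.29 in shControl cells, 1.31 and 1.10 after shMETTL3 and 2.52 and 1.87 after shMETTL14. Both shMETTL14 ratios lay above the other 6, so the pair did not fall in step in these libraries.

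COL3A1 (chr2:189839099-189877472), which makes the type III fibrils that accompany type I, had 2721 and 2688 normalized counts in control cells, 597 and 891 in shControl cells, 880 and 633 after shMETTL3 and 178 and 316 after shMETTL14. Its values with shControl and shMETTL3 covered the same range. The fall was 1.86 (SE 0.20) on the log2 scale in senescence and a further 1.60 (SE 0.21) with shMETTL14 (edgeR adjusted p = 2.32e-06), while the difference with shMETTL3 was 0.02 (95% interval −0.38 to 0.42). Against control cells COL3A1 was lower by 3.46 (SE 0.21) on the log2 scale with shMETTL14, an 11-fold difference (edgeR adjusted p = 5.71e-13).

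Type V chains join type I in mixed fibrils and are known to set fibril width. COL5A2 (chr2:189896641-190044605) had 1655 and 1671 normalized counts in control cells, 562 and 687 in shControl cells, 604 and 581 after shMETTL3 and 250 and 317 after shMETTL14. Like COL3A1, it fell in senescence, by 1.41 (SE 0.14), and again with shMETTL14, by 1.14 (SE 0.15, edgeR adjusted p = 2.62e-06), whereas the difference with shMETTL3 was −0.08 (95% interval −0.37 to 0.22). COL5A1 (chr9:137533651-137736688), its partner, had 1095 and 960 in control cells, 570 and 623 in shControl cells, 1004 and 742 after shMETTL3 and 439 and 514 after shMETTL14. It fell less in senescence, by 0.78 (SE 0.15, edgeR adjusted p = 0.00021), and rose with shMETTL3 by 0.55 (SE 0.15, edgeR adjusted p = 0.00877). That rise did not pass without shMETTL3 replicate 1 (0.30), shControl replicate 1 (0.48) or shControl replicate 2 (0.60). With shMETTL14 the COL5A1 difference was −0.33 (95% interval −0.64 to −0.01, edgeR adjusted p = 0.137), which passed when only the groups compared were fitted (−0.34, adjusted p = 0.0444). On 12.5% of its length COL5A1 overlaps LOC101448202 on the opposite strand, whose raw counts ran from 108 to 286.

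The ratio of COL5A1 to COL5A2 raw counts was 0.662 and 0.574 in control cells, 1.01 and 0.908 in shControl cells, 1.66 and 1.28 after shMETTL3 and 1.76 and 1.62 after shMETTL14. No senescent library reached down to the control ratios, and the ranges of the knockdowns overlapped. The minor type V chain COL5A3 was the only collagen gene called higher with shMETTL14, with a log2 fold change of 1.70 (SE 0.33, edgeR adjusted p = 0.000428) with shMETTL14, from 30.7 and 12.2 to 77.0 and 62.1 normalized counts.

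COL11A1, COL24A1 and COL27A1 encode minor fibrillar chains, the first best known from cartilage. COL11A1 (chr1:103342023-103574052) had 175 and 159 normalized counts in control cells, 74.5 and 81.2 in shControl cells, 341 and 355 after shMETTL3 and 62.0 and 117 after shMETTL14. The shMETTL3 libraries were higher than those of every other group, controls included. The gene fell in senescence by 1.10 (SE 0.21), rose with shMETTL3 by 2.16 (SE 0.20, edgeR adjusted p = 7.93e-09), the largest rise of a collagen gene in that comparison, and differed by 0.19 (95% interval −0.27 to 0.66) with shMETTL14. The cartilage gene ACAN stayed at 2 raw counts or fewer, and SOX9 was the only cartilage marker with a mean of 10 or more. Upstream of COL11A1, the window printed above held GGGCGG at 3 places and CCAAT at 1, counting both strands.

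COL24A1 (chr1:86194916-86622719) had 123 and 128 normalized counts in control cells, 157 and 108 in shControl cells, 374 and 370 after shMETTL3 and 102 and 176 after shMETTL14. COL27A1 (chr9:116917825-117074796) had 156 and 142, 149 and 135, 352 and 271, and 120 and 156 in the same order. In both, the shMETTL3 libraries were the highest and the other 3 groups overlapped. The rises with shMETTL3 were 1.49 (SE 0.19, edgeR adjusted p = 1.5e-06) for COL24A1 and 1.13 (SE 0.17, edgeR adjusted p = 1.32e-05) for COL27A1. With shMETTL14 the differences from shControl were 0.07 (95% interval −0.36 to 0.49) and −0.04 (95% interval −0.41 to 0.33).

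The basement membrane chains COL4A1 and COL4A2 form the common type IV network and share the interval printed above. COL4A1 had 1451 and 1278 normalized counts in control cells, 1675 and 1740 in shControl cells, 3101 and 2962 after shMETTL3 and 691 and 1120 after shMETTL14. The groups did not overlap, and shMETTL3 and shMETTL14 lay on opposite sides of shControl. The log2 fold change was 0.83 (SE 0.16, edgeR adjusted p = 0.000418) with shMETTL3, −0.92 (SE 0.16, edgeR adjusted p = 0.000179) with shMETTL14 and −1.74 (SE 0.17, edgeR adjusted p = 1.22e-08) between the knockdowns. In senescence it was 0.32 (95% interval −0.01 to 0.66, edgeR adjusted p = 0.148), which passed without shMETTL14 replicate 1 (0.36), without shMETTL14 replicate 2 (0.34) and when only the groups compared were fitted (0.37).

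COL4A2 had 1822 and 1702 normalized counts in control cells, 1720 and 1677 in shControl cells, 2454 and 2190 after shMETTL3 and 623 and 913 after shMETTL14. Control and shControl libraries overlapped, with a log2 difference of −0.05 (95% interval −0.36 to 0.26). The fall with shMETTL14 was 1.15 (SE 0.15, edgeR adjusted p = 3.67e-06). The rise with shMETTL3 of 0.45 (SE 0.15, edgeR adjusted p = 0.0307) did not pass when any 1 of control replicate 1 (0.44), control replicate 2 (0.44), shControl replicate 1 (0.46), shControl replicate 2 (0.42) or shMETTL3 replicate 1 (0.35) was left out. The ratio of COL4A1 to COL4A2 raw counts was 0.796 and 0.751 in control cells, 0.974 and 1.04 in shControl cells, 1.26 and 1.35 after shMETTL3 and 1.11 and 1.23 after shMETTL14. Control libraries had the lowest ratios and shMETTL3 libraries the highest. The antisense genes COL4A2-AS2 and COL4A2-AS1 lie within COL4A2 and cover 3.35% and 2.72% of it, with 51 to 155 and 46 to 218 raw counts.

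COL4A5 (chrX:107683074-107940775) and COL4A6 (chrX:107398837-107682727), chains of another type IV network, lie head to head as well. COL4A5 had 513 and 495 normalized counts in control cells, 562 and 590 in shControl cells, 598 and 808 after shMETTL3 and 185 and 286 after shMETTL14. The shMETTL14 libraries were the lowest, a fall of 1.29 (SE 0.17, edgeR adjusted p = 3.15e-06). With shMETTL3 the log2 difference was 0.29 (95% interval −0.04 to 0.62), or 0.47 and past the threshold without shMETTL3 replicate 1, and in senescence it was 0.19 (95% interval −0.14 to 0.53), or 0.23 and past the threshold when only the groups compared were fitted. COL4A6 fell with shMETTL14 by 1.59 (SE 0.21) on the log2 scale, and its senescence difference of 0.46 passed without shMETTL3 replicate 1 or 2, where it was 0.47 each time, and when only the groups compared were fitted (0.50). The ratio of COL4A5 to COL4A6 raw counts was 4.95 and 5.32 in control cells, 4.52 and 4.05 in shControl cells, 6.27 and 7.46 after shMETTL3 and 5 and 5.44 after shMETTL14. Of the type IV genes, COL4A3 and COL4A4, chains of the kidney glomerulus, were not tested, with at most 6 and 8 counts in any library.

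**Figure D4:**
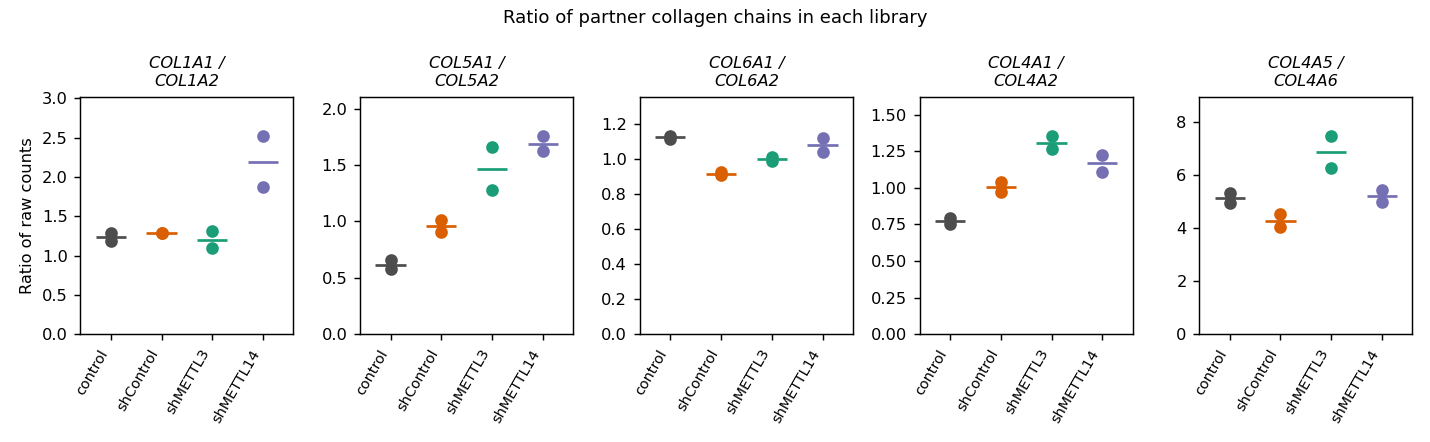
Ratio of raw counts of partner chains in each library, for COL1A1 to COL1A2, COL5A1 to COL5A2, COL6A1 to COL6A2, COL4A1 to COL4A2 and COL4A5 to COL4A6. Points are libraries, short lines are the means of 2, and each vertical axis starts at 0. For COL1A1 to COL1A2 the shMETTL14 libraries stand at 2.52 and 1.87 and the other 6 between 1.10 and 1.31.

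Among the other network-forming chains, COL8A1 (chr3:99357440-99515577), a chain of the matrix below endothelium, had 284 and 273 normalized counts in control cells, 379 and 313 in shControl cells, 484 and 461 after shMETTL3 and 212 and 254 after shMETTL14. The shMETTL3 libraries were the highest and the shMETTL14 libraries the lowest. It rose with shMETTL3 by 0.45 (SE 0.14, edgeR adjusted p = 0.0201) and fell with shMETTL14 by 0.57 (SE 0.15, edgeR adjusted p = 0.00601). The rise did not pass without shControl replicate 2 (0.30) or by DESeq2 (0.47, adjusted p = 0.0644). The fall did not pass without shControl replicate 1 (−0.43), without shMETTL14 replicate 1 (−0.47) or with library size alone (−0.22). In senescence the difference was 0.31 (95% interval 0.02 to 0.61, edgeR adjusted p = 0.114), which passed without shMETTL3 replicate 2 (0.32) and when only the groups compared were fitted (0.35). COL8A1 lies wholly inside MIR548G on the opposite strand, which had 531 to 1272 raw counts.

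COL10A1, the chain of hypertrophic cartilage, was higher in senescence by 1.63 (SE 0.49, edgeR adjusted p = 0.0139), from 7.97 and 7.84 to 27.2 and 22.3 normalized counts. This call was lost without control replicate 1 (1.64), control replicate 2 (1.62) or shControl replicate 1 (1.49) and by DESeq2 (1.65, adjusted p = 0.0609). Its difference between shMETTL14 and shMETTL3, −1.28 (SE 0.48), was lost with 5 of the 8 single libraries left out, at −0.53 without shMETTL3 replicate 1, −0.93 without shMETTL14 replicate 1, −1.75 without shMETTL14 replicate 2 and −1.27 without either shControl library, and also by DESeq2 (−1.31) and when only the groups compared were fitted (−1.26). With shMETTL14 the difference from shControl of −1.33 (adjusted p = 0.0523) passed without either shMETTL3 library, with no filter on low counts and when only the groups compared were fitted. COL10A1 lies wholly inside NT5DC1 on the opposite strand (71 to 191 raw counts). The counting command kept 1 strand by its option, yet of 61 genes averaging at least 100 counts and lying inside a gene on the opposite strand, only 1 had more counts than the outer gene in any library, so reads of a collagen gene and of a gene opposite to it cannot be told apart.

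The type VI chains COL6A1, COL6A2 and COL6A3, which form the beaded filaments that anchor cells to the matrix, were lower with both knockdowns. COL6A1 (chr21:47401663-47424963) had 3750 and 3369 normalized counts in control cells, 4031 and 3879 in shControl cells, 2416 and 1760 after shMETTL3 and 2163 and 2205 after shMETTL14. COL6A2 (chr21:47518033-47552763) had 3315 and 3015, 4439 and 4184, 2442 and 1735, and 1927 and 2116 in the same order. For both genes the knockdown groups overlapped each other and lay below control and shControl cells.

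COL6A3 (chr2:238232655-238322850) had 11022 and 10196 normalized counts in control cells, 9815 and 9721 in shControl cells, 6139 and 5272 after shMETTL3 and 2885 and 3546 after shMETTL14, so its shMETTL14 libraries lay below those with shMETTL3. The log2 fold changes with shMETTL3 were −0.92 (SE 0.15) for COL6A1, −1.05 (SE 0.15) for COL6A2 and −0.78 (SE 0.14) for COL6A3 (edgeR adjusted p = 3.72e-05, 9.49e-06 and 0.000188). With scaling by library size alone those of COL6A1 and COL6A3 were −0.32 (adjusted p = 0.0568) and −0.17 (adjusted p = 0.258), where the median gene stood at 0.58. With shMETTL14 the log2 fold changes were −0.86 (SE 0.15), −1.09 (SE 0.15) and −1.60 (SE 0.14). Between the knockdowns COL6A1 differed by 0.06 (95% interval −0.24 to 0.37) and COL6A2 by −0.05 (95% interval −0.35 to 0.26), while COL6A3 was lower with shMETTL14 by −0.83 (SE 0.14, edgeR adjusted p = 5.01e-05).

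In senescence COL6A1 differed by 0.15 (95% interval −0.15 to 0.45) and COL6A3 by −0.12 (95% interval −0.41 to 0.17), and COL6A2 rose by 0.45 (SE 0.15, edgeR adjusted p = 0.026). That call did not pass without control replicate 1 (0.52), control replicate 2 (0.38), shControl replicate 1 (0.41) or shControl replicate 2 (0.50), nor with upper quartile scaling (0.39), and with library size alone the value was −0.05. The ratio of COL6A1 to COL6A2 raw counts was 1.13 and 1.12 in control cells, 0.908 and 0.927 in shControl cells, 0.989 and 1.01 after shMETTL3 and 1.12 and 1.04 after shMETTL14. All 8 libraries lay between 0.908 and 1.13.

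COL7A1 (chr3:48601506-48632593), which makes the anchoring fibrils below epithelia, had 135 and 125 normalized counts in control cells, 306 and 244 in shControl cells, 540 and 375 after shMETTL3 and 116 and 162 after shMETTL14. Control and shMETTL14 libraries overlapped, and shMETTL3 libraries were the highest. It rose in senescence by 1.08 (SE 0.18, edgeR adjusted p = 4.9e-05) and with shMETTL3 by 0.73 (SE 0.17, edgeR adjusted p = 0.00191), and fell with shMETTL14 by 0.98 (SE 0.19, edgeR adjusted p = 0.000292). The rise with shMETTL3 did not pass without shControl replicate 2 (0.57) and was 0.43 without shMETTL3 replicate 1. Against control cells the difference with shMETTL14 was 0.09 (95% interval −0.31 to 0.49).

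Fibril-associated collagens bind the surface of fibrils, and their 5 tested members did not share a direction in senescence. COL12A1 (chr6:75794042-75915623), the most abundant of them, had 4500 and 4539 normalized counts in control cells, 1876 and 2160 in shControl cells, 1698 and 1754 after shMETTL3 and 659 and 873 after shMETTL14. All 4 groups were separate, although the shControl and shMETTL3 values lay close. It fell in senescence by 1.16 (SE 0.14, edgeR adjusted p = 4.24e-07) and with shMETTL14 by 1.40 (SE 0.15, edgeR adjusted p = 7.62e-08), and differed by −0.23 (95% interval −0.52 to 0.07) with shMETTL3. COL16A1 (chr1:32117848-32169768) had 272 and 288, 76.8 and 110, 41.0 and 36.1, and 79.96 and 61.1 in the same order. Here the shMETTL3 libraries were the lowest, with a fall of 1.28 (SE 0.23, edgeR adjusted p = 0.000177) from shControl after a fall of 1.58 (SE 0.18) in senescence. COL16A1 was higher with shMETTL14 than with shMETTL3 by 0.87 (SE 0.24), which did not pass without shMETTL14 replicate 1 (0.65) or with library size alone (0.62), and its difference between shMETTL14 and shControl was −0.41 (95% interval −0.84 to 0.03).

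COL14A1, a chain that regulates fibril growth, fell by 2.07 (SE 0.29) in senescence, fell by 3.25 (SE 0.54) with shMETTL3 and fell by 2.98 (SE 0.52) with shMETTL14, the last becoming −4.71 without shMETTL14 replicate 2. It went from 122 and 125 normalized counts in control cells to 26 and 32.3, 1.03 and 4.75, and 0.999 and 6.32. The summed counts of both libraries were 281 in control cells, 6 with shMETTL3 and 7 with shMETTL14, folds of 41.7 (18.9 to 115, exact 95% counting interval) and 34.4 (16.5 to 86.3) lower. COL19A1, a rare fibril-associated chain, moved the other way, with a total of 2 counts in the control libraries, 109 with shControl, 96 with shMETTL3 and 31 with shMETTL14. It stood 71.2-fold above control cells with shControl (19.2 to 595, exact counting interval), 53.9-fold (14.5 to 452) with shMETTL3 and 18.1-fold (4.61 to 156) with shMETTL14, and the fall from shControl to shMETTL14 was 1.97 (SE 0.33) on the log2 scale. COL21A1 was higher in senescence by 1.99 (SE 0.51), which did not pass without shControl replicate 1 (1.77), and had 4.43 and 5.22 normalized counts in the control libraries and 22.5 and 16.7 in those of shControl cells. These intervals cover counting error only.

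COL15A1 and COL18A1 are the multiplexins, basement membrane collagens that carry heparan or chondroitin sulfate. COL15A1 fell by 2.65 (SE 0.34) in senescence, from 108 and 94.0 to 9.46 and 22.3 normalized counts. Its values were 1.03 and 4.75 with shMETTL3 and 0.999 and 3.16 with shMETTL14, log2 fold changes from shControl of −2.39 (SE 0.63) and −2.89 (SE 0.68). Against 230 summed counts in control cells, the 6 with shMETTL3 and 4 with shMETTL14 were folds of 34.1 (15.4 to 94.0, exact 95% counting interval) and 49.2 (18.97 to 182) lower. The change with shMETTL3 was −1.65 and did not pass without shControl replicate 2, and was −3.83 without shMETTL3 replicate 2. That with shMETTL14 did not pass without shControl replicate 2 (−2.14) or without shMETTL14 replicate 1 (−2.32). COL18A1 (chr21:46825052-46933634), the source of endostatin, had 430 and 360 normalized counts in control cells, 234 and 275 in shControl cells, 253 and 182 after shMETTL3 and 193 and 190 after shMETTL14. Control libraries were the highest and the senescent groups lay close together.

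The fall of COL18A1 in senescence was 0.63 (SE 0.15, edgeR adjusted p = 0.00257), and did not pass without control replicate 1 (−0.49) or shControl replicate 1 (−0.51). Its differences with shMETTL3 (−0.23) and shMETTL14 (−0.41) did not pass, but the first did without shMETTL3 replicate 1 (−0.50) and the second without shMETTL3 replicate 1 (−0.41) or 2 (−0.42) or when only the groups compared were fitted (−0.43). Among the transmembrane types only COL13A1, found at cell adhesions, was tested, and it was lower in senescence by −0.66 (SE 0.23, edgeR adjusted p = 0.0349). That call was lost without control replicate 1 (−0.48), shControl replicate 1 (−0.63), shControl replicate 2 (−0.67) or shMETTL14 replicate 1 (−0.63), and by DESeq2 (−0.66, adjusted p = 0.169). Without shMETTL3 replicate 1, COL13A1 passed with shMETTL3 at −1.16 and between the knockdowns at 1.01.

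Set against control cells, shMETTL3 and shMETTL14 cells had 13 and 19 of the 27 tested collagen genes lower (20.1% and 20.5% of all genes) and 11 and 3 higher (20.1% and 19.7% of all genes). COL1A1, COL1A2, COL3A1, COL5A2, COL6A1, COL6A2, COL6A3, COL12A1, COL13A1, COL14A1, COL15A1, COL16A1 and COL18A1 were lower than in control cells with both knockdowns. COL4A1 was higher with shMETTL3 by 1.15 (SE 0.16) and lower with shMETTL14 by −0.59 (SE 0.16). COL11A1 likewise was 1.06 (SE 0.17) higher with shMETTL3 and −0.91 (SE 0.20) lower with shMETTL14. COL5A1, which fell in senescence, differed from control cells by −0.24 (95% interval −0.54 to 0.07) with shMETTL3 and by −1.11 (SE 0.15) with shMETTL14.

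The enzymes, chaperones, receptors and proteases that handle collagen were read from a list of 68 genes, of which 55 were tested. In senescence 19 of them were higher and 16 lower, where 13.3% of all genes were called in each direction. With shMETTL3 10 were higher and 13 lower (12.3% and 11.2% of all genes), and with shMETTL14 1 was higher and 25 lower (9.15% and 12% of all genes). Between the knockdowns 6 were higher and 18 lower with shMETTL14 (16.5% and 18.7% of all genes). Their median log2 fold changes were 0.07, −0.08, −0.49 and −0.29, against −0.03, −0.03, 0.00 and 0.01 over all genes tested. Of 14 tested enzymes that hydroxylate or glycosylate collagen, 8 were higher and 2 lower in senescence, and with shMETTL14 6 were lower and 1, COLGALT1, was higher. PLOD2, a lysyl hydroxylase, rose in senescence by 1.84 (SE 0.16), and P3H2, a prolyl hydroxylase, fell by 1.51 (SE 0.18) and then rose with shMETTL3 by 1.01 (SE 0.18). All 5 crosslinking enzymes of the LOX family were tested, and 4 were lower in senescence and none higher.

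Among the matrix proteases, MMP3 (stromelysin) had 2 and 3 raw counts in control cells, 5581 and 5385 in shControl cells, 179 and 173 after shMETTL3 and 604 and 505 after shMETTL14. MMP1, the interstitial collagenase that cleaves fibrillar collagen, had 80 and 68, 9228 and 8617, 4695 and 5266, and 6076 and 5348 raw counts in the same order. Control libraries were the lowest and shControl libraries the highest for both. MMP3 fell by 5.18 (SE 0.16) on the log2 scale with shMETTL3 and by 3.47 (SE 0.15) with shMETTL14, and of the 7 tested cleavage genes 6 were lower with shMETTL14 and none higher, where 12% of all genes were lower and 9.15% higher. FAP, a protease of activated fibroblasts and one of the fibroblast markers, was higher with shMETTL3 by 0.83 (SE 0.16) and lower with shMETTL14 than with shMETTL3 by −1.60 (SE 0.17).

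Of the 5 tested fibril organizers, 1 was higher and 3 lower in senescence, 1 was higher and 3 lower with shMETTL3, and none was higher and 2 were lower with shMETTL14. Of all genes tested, 13.3% were higher and 13.3% lower in senescence, 12.3% higher and 11.2% lower with shMETTL3, and 9.15% higher and 12% lower with shMETTL14. DCN (decorin), a proteoglycan on collagen fibrils, and FBLN1 (fibulin) fell in all 3 comparisons. DCN went from 855 and 831 raw counts in control cells to 103 and 197 in shControl cells, 25 and 21 after shMETTL3 and 30 and 34 after shMETTL14, and FBLN1 from 359 and 352 to 46 and 77, 15 and 15, and 12 and 16. Their log2 fold changes in senescence were −2.11 (SE 0.17) and −2.15 (SE 0.19). The proteoglycan BGN (biglycan) rose in senescence by 0.89 (SE 0.25) and was lower with shMETTL3 by −1.04 (SE 0.26), and SPARC, which binds collagen, rose with shMETTL3 by 0.50 (SE 0.13). Of the collagen-binding integrins, ITGA2 and ITGA1 rose with shMETTL3 by 0.92 (SE 0.15) and 0.83 (SE 0.17), whereas ITGB1, their shared beta chain, fell by 0.85 (SE 0.13). ITGA1 and ITGA11 were lower with shMETTL14 than with shMETTL3 by −1.80 (SE 0.18) and −1.68 (SE 0.26), and 5 of 8 tested receptors were lower with shMETTL14 than with shControl and none higher (12% and 9.15% of all genes). Among listed genes averaging at least 50 counts, LOXL1, MMP3 and PLOD3 were the largest rises from shMETTL3 to shMETTL14, at 1.81 (SE 0.29), 1.71 (SE 0.15) and 0.87 (SE 0.19).

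Fibroblast markers, of which DCN, FAP, LOX and LUM are also in the list of collagen-handling genes, were read beside the collagen genes. Their calls went both ways in senescence and with shMETTL3. Of the 11 tested, 7 were lower and 1 higher in senescence, 3 lower and 4 higher with shMETTL3, and 8 lower and none higher with shMETTL14, where 13.3%, 11.2% and 12% of all genes were lower and 13.3%, 12.3% and 9.15% higher. The summed level of the 12 markers was 15652 and 16422 normalized counts in control cells, 17488 and 17504 in shControl cells, 20264 and 22953 after shMETTL3 and 11913 and 13774 after shMETTL14. Most of that sum came from FN1 and VIM. Without them, a split chosen after the values were seen, the other 10 markers summed to 3788 and 3667 normalized counts in control cells, 2185 and 2475 in shControl cells, 2749 and 2571 after shMETTL3 and 986 and 1364 after shMETTL14. On that sum both shControl libraries lay below both control libraries, where on the full sum they lay above them. The summed endothelial markers were 8.71 and 8.86 normalized counts in control cells, 16.7 and 24.8 in shControl cells, 8.21 and 13.3 after shMETTL3 and 44.0 and 49.5 after shMETTL14. TIE1 averaged 0, 7.48, 4.35 and 43.7 in the same order and VWF 8.34, 5.22, 4.43 and 1.03, while the defining genes PECAM1 and CDH5 stayed at 2 raw counts or fewer. TIE1, the only endothelial marker tested, was called higher in senescence, where its control libraries held no counts, higher with shMETTL14 than with shControl by 2.53 and higher with shMETTL14 than with shMETTL3 by 3.27. The summed epithelial markers ran from 44.3 to 48.8 normalized counts in control cells, 35.6 to 60.3 with shControl, 24.6 to 24.7 with shMETTL3 and 69.5 to 84.0 with shMETTL14. Of the 3 tested epithelial markers, 1 was higher in senescence, none was called with either knockdown against shControl, and all 3 were higher with shMETTL14 than with shMETTL3 (median 1.63), where 16.5% of all genes were higher. Summed smooth muscle markers ran from 265 to 312 normalized counts in control cells, 118 to 169 in shControl cells, 150 to 161 after shMETTL3 and 98.0 to 101 after shMETTL14, and 2 of the 3 tested were lower in senescence. Summed leukocyte markers ran from 15.1 to 16.5, 53.4 to 79.2, 25.6 to 47.2 and 48.4 to 52.0 in the same order, and CD68, the only one tested, was higher in senescence by 2.05 and lower with shMETTL3 by −0.84. The cartilage markers summed to 63.6 to 65.5, 94.6 to 113.5, 72.8 to 92.1 and 90.0 to 94.8. The part of these markers in the collagen results was not tested.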

How the data were processed

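The deposited values are the authors' raw counts of fastGRO-seq reads over whole gene bodies (hg19), introns included, made with HOMER (4.10 in the paper's methods) on 1 strand per the file headers, with no normalization and replicates kept apart. STAR and deepTools 3.3 are named in the submitters' processing notes. Fold changes are relative to other genes of a library, since no spike-in from Drosophila was used here. Per the file headers the table also gives each gene's length, used for levels per kilobase.

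All 8 libraries were fitted together with edgeR 4.0.16 (R 4.3.3): TMM, filterByExpr with a minimum count of 10, a quasi-likelihood F test for each contrast of the 4 groups and Benjamini-Hochberg adjustment over all 12844 genes tested, called below 0.05. Variation between replicates was 10.6% (biological coefficient of variation). SE is the log2 fold change divided by the root of F, and 95% intervals use the t quantile of the fit. The study calls its replicates biologically independent experiments, while the labels do not say how they were separated, and p-values measure only the spread between these libraries. In pairs of replicates, chi-square per degree of freedom ran from 1.71 to 7.26, so none was a library deposited a second time. Folds against control cells of COL14A1, COL15A1 and COL19A1, with under 10 counts in a group, have exact counting intervals. The fitting code was also run on simulated counts, a check of the code that says nothing about these libraries.

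Collagen genes averaging at least 100 counts and passing in at least 1 of the first 3 comparisons, and COL1A1, COL1A2, COL3A1, COL5A1, COL5A2, COL4A1, COL4A2, COL6A1, COL6A2 and COL6A3, are given with every library. Other called members are given with a fold change. From the collagen-handling list (modification, folding and export, propeptide removal, crosslinking, cleavage, receptors, fibril organizers) the 3 largest rises and falls with a mean of at least 50 counts were named. Values of single libraries beyond this rule, the values of BGN, SPARC and ITGB1 and of ITGA1 with shMETTL3, and the sequences shown were chosen after the values were seen. The members and lists were chosen with earlier results of these data known. The alternatives were DESeq2 1.42.0, library size alone, upper quartile, removal of ribosomal RNA rows, other filters, the groups compared alone, replicate number as a block, adjusted p limits of 0.01, a required log2 change of 1 in size, and each library left out. With 1 library left out, its group held a single library, which was assumed to vary like the other groups, whose spread the fit then used.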

Additional observations from a re-analysis of the deposited data

How the results depend on the processing

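The number of collagen genes higher in senescence (5) was 2 with at least 10 counts in every library, 3 at an adjusted p below 0.01 and 9 when only the groups compared were fitted. It also changed with some single libraries left out. The number higher with shMETTL3 (8) was 14 with library size alone and 3 where a log2 change of 1 in size was required, and 4 to 8 with single libraries left out. The number higher with shMETTL14 than with shMETTL3 (2) was 1 with library size alone or where a log2 change of 1 in size was required. It changed too with some single libraries left out, where collagen genes not tested in the main fit could enter. The other counts stayed within 1.5 times. For none of these alternatives was the share of all genes called counted. COL6A2 in senescence turned to −0.052 with library size alone (adjusted p = 0.777), where the median of all genes was −0.53. That scaling also called higher with shMETTL3 COL1A1 (0.81), COL1A2 (0.90), COL3A1 (0.62), COL4A5 (0.92), COL5A2 (0.53) and COL12A1 (0.39), beside a median gene at 0.58, and lower in senescence COL4A2 (−0.55), COL27A1 (−0.57), COL6A1 (−0.35) and COL6A3 (−0.62). The cause of these changes was not tested. Over 108 results for single genes, 1578 of 1704 alternative values kept direction and call, and 45, of 29 results that did not pass, changed sign without passing.

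The replicate numbers do not pair the libraries. Correlations of replicate differences between groups ran from −0.041 to 0.088. With the replicate number as a block the counts of genes higher and lower were 5 and 12 in senescence, 8 and 6 with shMETTL3, 1 and 17 with shMETTL14, and 2 and 17 between the knockdowns, where COL10A1 did not pass (−1.25, adjusted p = 0.051). Depth limits the 17 collagen genes not tested and the folds of COL14A1, COL15A1, COL19A1 and COL21A1, which rest on few counts in at least 1 group.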
